A study of Homo sapiens with 6 samples.

Results

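The genes examined here encode proteoglycan core proteins, the enzymes that build and modify heparan sulfate and chondroitin sulfate chains, and the hyaluronan synthases. They were taken by gene symbol from a table of 26255 genes, which listed 74 of them. RNA sequencing was carried out on H1299 cells, an established human lung cancer cell line. Of the 6 libraries, 3 carried a control shRNA in a pSilencer2.1-U6 vector (shControl) and 3 carried an Ephexin1 shRNA in the same kind of vector (shEphexin1), and the comparison asked how depletion of Ephexin1 changed the transcriptome. Ephexin1 is a guanine nucleotide exchange factor encoded by NGEF. The cells were grown in RPMI-1640 with fetal bovine serum, were selected for weeks to obtain stable clones, and received no other treatment. The 3 shEphexin1 libraries share 1 name stem and may be repeats of 1 clone, so each p-value below measures only the spread between these libraries. The target gene NGEF had 13.3, 11.7 and 16.4 FPKM in shControl against 9.81, 8.25 and 10.5 FPKM in shEphexin1, a log2 fold change of -0.53 (SE 0.163, limma adjusted p = 0.103) without overlap of the groups. In replicates 1 and 3 alone it was -0.54 (limma adjusted p = 0.0338). After correction for GC content and length over all 6 libraries it was -0.57 (limma adjusted p = 0.00137).

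Proteoglycans are proteins that carry long, unbranched and sulfated sugar chains attached to serine residues. Polymerases extend a chain from a short linker, and sulfotransferases then decorate it in patterns that bind growth factors, chemokines and matrix proteins. At the surface of carcinoma cells, syndecans and glypicans serve as co-receptors for growth factors and as adhesion molecules, while secreted proteoglycans such as perlecan and agrin are built into the basement membrane.

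The windows before the start of SDC1, CHST15 and CHPF are shown. SDC1 and CHST15 were the 2 members that passed both thresholds of the comparison. CHPF passed them when the replicate 2 libraries were left out. CSPG4 did so too, but its window is not shown and held 1 GC box and no other searched motif. Each window holds the 250 bases upstream of the most upstream RefSeq start on GRCh38.p14, on the minus strand, at chr2:20225476-20225725 for SDC1, chr10:124093599-124093848 for CHST15 and chr2:219543810-219544059 for CHPF. Capitals mark matches to 5 short motifs searched on both strands, namely the GC box GGGCGG, the AP-1 motif TGANTCA, the cyclic AMP response element TGACGTCA, the ETS motif CCGGAAGT and the E-box CACGTG. No searched motif contains another.
SDC1: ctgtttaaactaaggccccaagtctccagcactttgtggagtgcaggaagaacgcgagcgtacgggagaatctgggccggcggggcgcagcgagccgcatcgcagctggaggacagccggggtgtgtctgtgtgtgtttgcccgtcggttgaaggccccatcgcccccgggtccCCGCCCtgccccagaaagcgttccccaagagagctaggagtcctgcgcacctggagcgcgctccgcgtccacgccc
CHST15: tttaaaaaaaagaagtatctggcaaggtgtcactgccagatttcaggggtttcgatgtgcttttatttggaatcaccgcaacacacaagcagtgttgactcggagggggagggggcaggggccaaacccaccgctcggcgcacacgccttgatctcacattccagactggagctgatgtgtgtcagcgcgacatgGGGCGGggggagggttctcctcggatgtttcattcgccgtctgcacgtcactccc
CHPF: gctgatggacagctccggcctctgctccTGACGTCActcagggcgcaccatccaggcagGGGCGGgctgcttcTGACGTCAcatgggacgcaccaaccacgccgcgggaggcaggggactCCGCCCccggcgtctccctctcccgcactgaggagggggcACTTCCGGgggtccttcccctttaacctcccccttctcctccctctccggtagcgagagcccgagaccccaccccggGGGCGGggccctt
The SDC1 and CHST15 windows each held 1 GC box, and the CHPF window held 3 GC boxes, 2 cyclic AMP response elements and 1 ETS motif. Among the members, 60 of 74 matched the promoter table, with 79 windows. A GC box was found in 73.4% of the member windows and in 42.6% of all 35116 windows. The cyclic AMP response element was found in 5.06% of the member windows and 1.65% of all windows, the AP-1 motif in 5.06% and 6.57%, the ETS motif in 1.27% and 3.42%, and the E-box in 7.59% and 6.34%. No share was taken among windows of like GC content, and the 60 matched members include genes that were not tested. These matches describe letters in a window and do not show that a factor binds there.

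The level of a gene was its FPKM, the fragments per kilobase of transcript scaled between libraries by geometric normalization. It is corrected for length and so can be set side by side between genes. The summed FPKM was not fixed and ran from 516079 in shEphexin1 replicate 2 to 651441 in shControl replicate 3. No read counts accompanied the values, so the depth behind each level is unknown and no counting interval is given. A gene was tested if it reached 0.1 FPKM in at least 3 of the 6 libraries, and calling it took an adjusted p no higher than 0.025 together with a fold no smaller than 2. Fold changes are on the log2(FPKM + 0.1) scale, shEphexin1 minus shControl, which understates the change of low genes. As these are bulk samples, fewer cells of a type and less RNA per cell cannot be told apart.

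The replicate 2 libraries stood apart in both groups. Over 15204 genes, the deviation of a library from its group mean followed transcript GC content with a Spearman rho of -0.688 in shControl replicate 2 and -0.759 in shEphexin1 replicate 2, against 0.336 to 0.664 in the other 4 libraries. The tested members were richer in GC than all tested genes (median 52.7% against 47.9%), and their median deviation was -0.186 and -0.176 in the replicate 2 libraries. Values from replicates 1 and 3 alone are therefore given beside the main results. Markers of the cell line were present, with VIM at 1979 to 2670 FPKM and CDH2 and ZEB1 at 11.0 to 18.3 FPKM. The epithelial marker CDH1 and the lung marker NKX2-1 were at 0 in all libraries. Of the 5 epithelial markers, KRT8 and KRT18 were lower in shEphexin1 without overlap but were not called (log2 fold changes -1.07 and -0.94, adjusted p = 0.0304 and 0.0439). EPCAM went the other way at low levels of 0 to 0.0663 FPKM in shControl against 0.108 to 0.220 FPKM in shEphexin1 (0.97, adjusted p = 0.175). It reached 0.1 FPKM only in the shEphexin1 libraries, so the filter itself fixed its direction and lack of overlap. The summed level of the list, mostly KRT18, was 72.8 to 118 FPKM in shControl against 39.2 to 58.4 FPKM in shEphexin1. Of the 5 fibroblast markers, COL1A1 was tested and was higher without overlap but not called (0.87, adjusted p = 0.174). Its levels were low, at 0.0813 to 0.1235 FPKM in shControl against 0.1685 to 0.3865 FPKM in shEphexin1. It passed the filter mainly through shEphexin1, as shControl replicates 1 and 2 were under 0.1 FPKM. COL1A2 was at 0 in all libraries, and the summed level of the list was 0.102 to 0.160 FPKM in shControl against 0.202 to 0.478 FPKM in shEphexin1. The part of these marker differences in the results below was not tested. PTPRC and CD3E were at 0 in all libraries, and the leukocyte list was carried by CD68 at 37.8 to 71.1 FPKM.

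Of the 74 members, 49 were tested, 11 were at 0 in all 6 libraries and 14 were above 0 but under the filter. No member passed the filter through 1 group only. Among the 49, 2 were called (1 higher and 1 lower), beside 1.89% of all 16020 genes tested (0.893% higher and 0.999% lower). An adjusted p of at most 0.025 at any fold was reached by 4 members, SDC1, CHST15, CHST11 and GPC6, beside 3.41% of all genes, and the same 4 were those at 0.05 or under, beside 7.01%. An unadjusted p of at most 0.05 was reached by 14 members (28.6%), 12 higher and 2 lower, beside 23.3% of all genes (10.5% higher and 12.8% lower). The groups did not overlap for 16 members (32.7%), 14 higher and 2 lower, beside 28.3% of all genes (12.8% higher and 15.4% lower). The median log2 fold change was 0.13 over the tested members and -0.0093 over all genes, and 67.3% of the members had a positive value against 48.9% of all genes. Of the tested members, 20 had a transcript GC content of at least 56.2%, and among the 3801 genes of that range the median log2 fold change was 0.072 and 11.2% were higher and 5.47% lower without overlap.

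**Figure D1:**
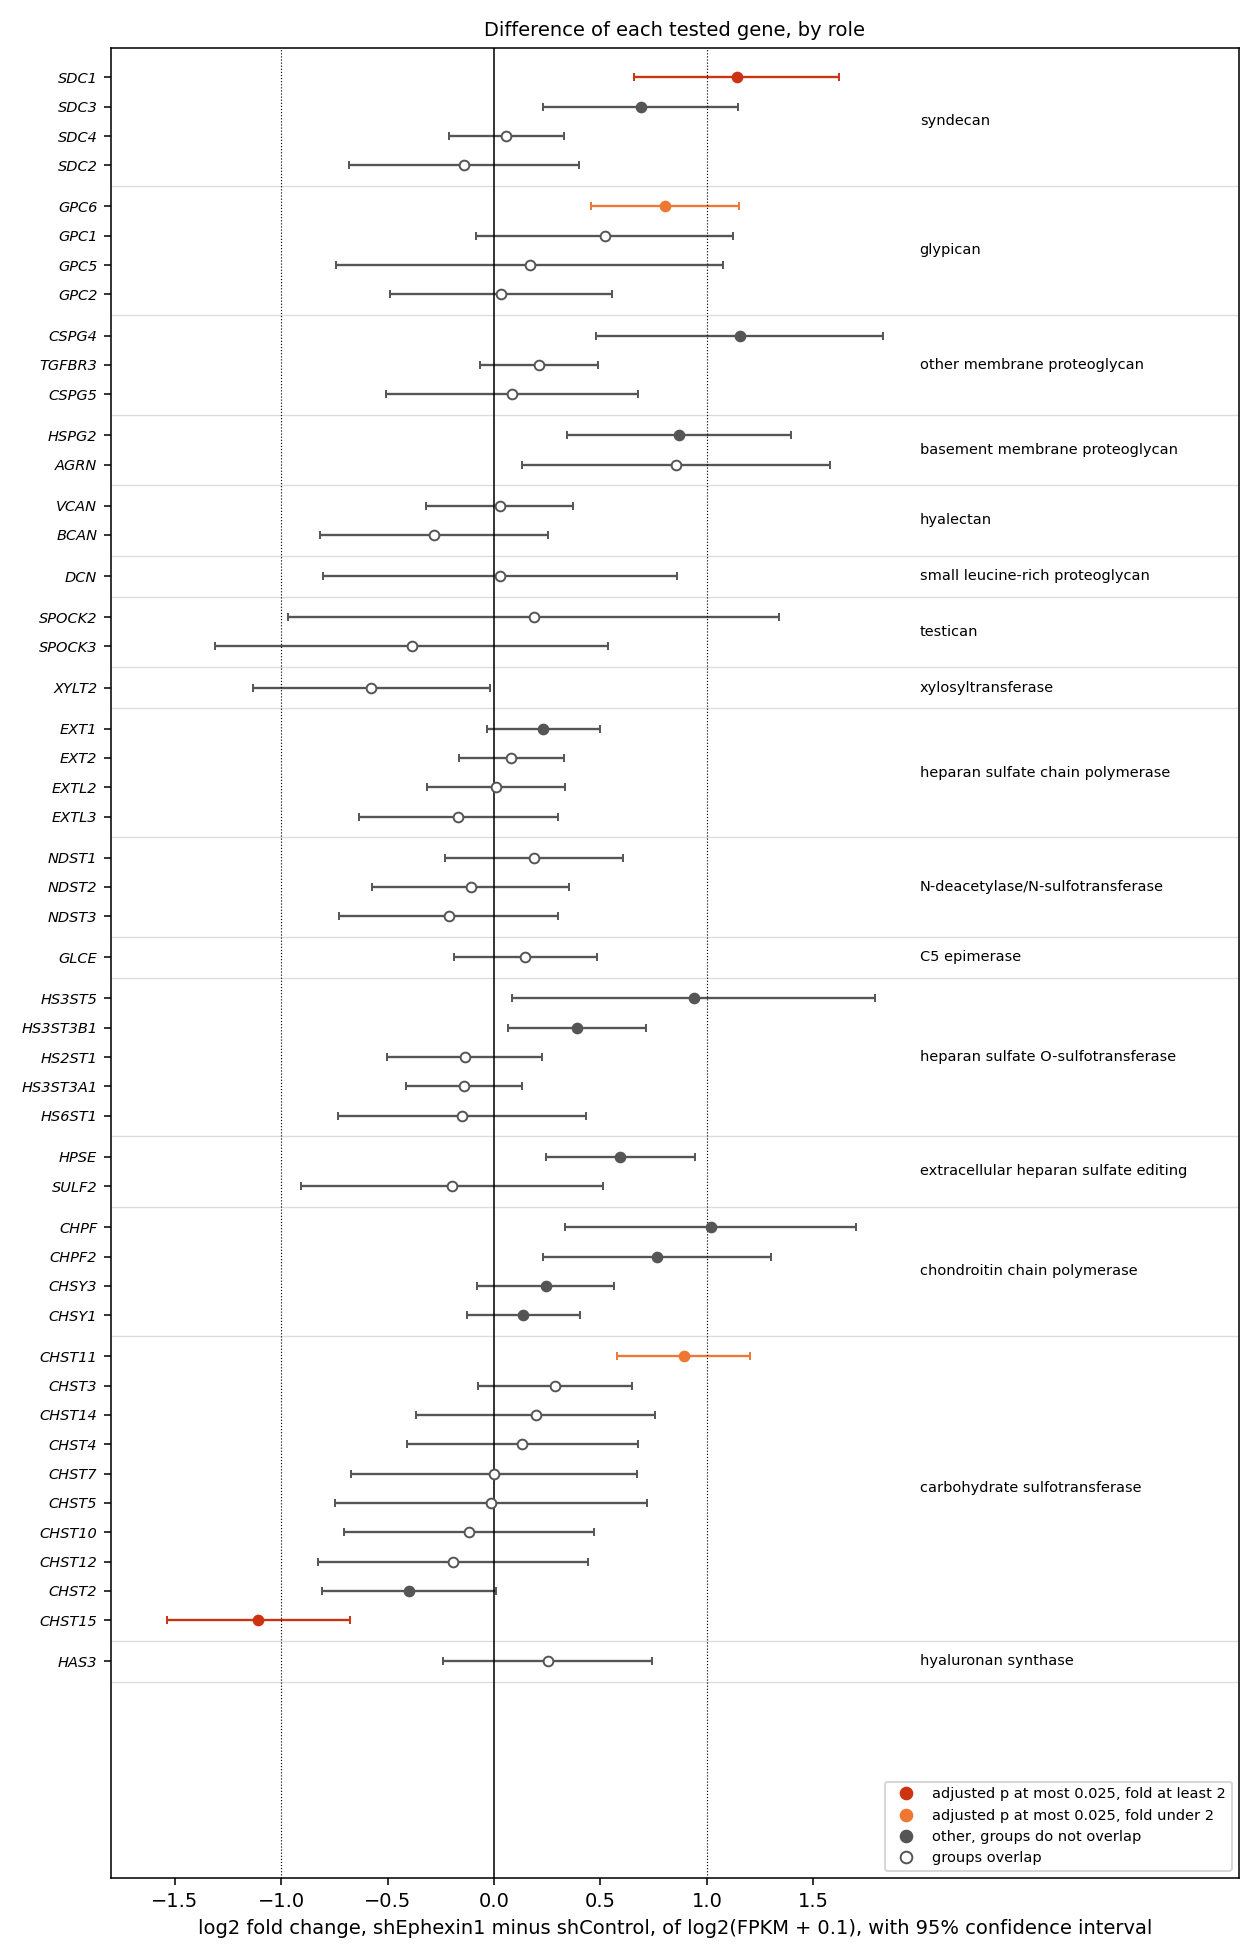
The x axis gives the log2 fold change of log2(FPKM + 0.1), shEphexin1 minus shControl, with its 95% confidence interval for the 49 tested genes, grouped by role, and dotted lines mark a fold of 2. SDC1 at 1.14 and CHST15 at -1.11 are the 2 called genes, and the intervals of SDC4, EXT2 and EXTL2 are narrow and include 0.

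Of 26 core protein genes, 18 were tested and 1 was called, beside 1.89% of all genes. An unadjusted p of at most 0.05 was reached by 6 of the 18, SDC1, SDC3, GPC6, CSPG4, HSPG2 and AGRN, all higher in shEphexin1, beside 23.3% of all genes (10.5% higher). SDC1 (chr2:20400558-20425194, GRCh37) encodes syndecan-1, a transmembrane heparan sulfate proteoglycan of epithelial cells. Its level was 9.85, 7.49 and 11.3 FPKM in shControl against 23.1, 16.3 and 24.1 FPKM in shEphexin1. Every shEphexin1 library lay above every shControl library, and replicate 2 was the lowest of each group. SDC1 rose by 1.14 on the log2 scale (SE 0.207, adjusted p = 0.0230), and the difference was 1.15 in replicates 1 and 3 alone (adjusted p = 0.00313) and 1.12 in replicate 2. The call was kept when shEphexin1 replicate 2 was left out and lost when any other library was (adjusted p = 0.0482 to 0.113). It was also lost with a pseudocount of 0.01 FPKM (adjusted p = 0.0259) and with no filter on low values (adjusted p = 0.0324).

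SDC3, a syndecan best known from neurons, was at 7.19, 5.90 and 8.50 FPKM in shControl against 12.8, 9.14 and 13.1 FPKM in shEphexin1. Its groups did not overlap, with a log2 fold change of 0.69 (SE 0.196, adjusted p = 0.0829) and of 0.72 in replicates 1 and 3 alone (adjusted p = 0.0124). SDC4, the syndecan of focal adhesions, was the most abundant core protein transcript among the members. It was at 73.7, 62.1 and 77.0 FPKM in shControl against 78.0, 69.4 and 73.4 FPKM in shEphexin1. Its groups overlapped, and the log2 fold change was 0.058 with a 95% interval of -0.21 to 0.33. SDC2 was below 1 FPKM in all libraries. SDC4 made up 80.4% ± 1.16 (SD, n = 3) of the summed syndecan FPKM in shControl against 69.0% ± 3.44 in shEphexin1, and SDC1 made up 10.7% ± 0.897 and 19.6% ± 2.31. Both shares were separated between the groups (exact two-sided permutation p = 0.1, the smallest that 3 against 3 libraries allow, and 0.329 after adjustment over 69 sums, shares and ratios).

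Glypicans are anchored to the membrane by a lipid. GPC6 was at 4.50, 4.79 and 3.87 FPKM in shControl against 7.71, 8.60 and 6.89 FPKM in shEphexin1, with no overlap and with replicate 2 the highest of each group. It passed the adjusted p but not the fold threshold (log2 fold change 0.80, SE 0.148, adjusted p = 0.0244), with 0.79 in replicates 1 and 3 (adjusted p = 0.0151). Leaving out any 1 library took its adjusted p to 0.0393 to 0.118. GPC1, a co-receptor for fibroblast growth factors, was at 8.39, 5.88 and 8.63 FPKM in shControl against 12.5, 7.46 and 13.6 FPKM in shEphexin1. The shEphexin1 replicate 2 library overlapped the controls, and the log2 fold change was 0.52 (SE 0.258, adjusted p = 0.282), with 0.61 in replicates 1 and 3 (adjusted p = 0.0135). GPC2 was at 2.77 to 4.83 FPKM and GPC5 at 0.0931 to 0.366 FPKM, with overlap, and GPC3 and GPC4 were at 0 in all libraries. The glypican sum was 15.8 ± 1.57 FPKM in shControl against 22.9 ± 3.32 FPKM in shEphexin1, without overlap (exact permutation p = 0.1, adjusted 0.329).

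**Figure D2:**
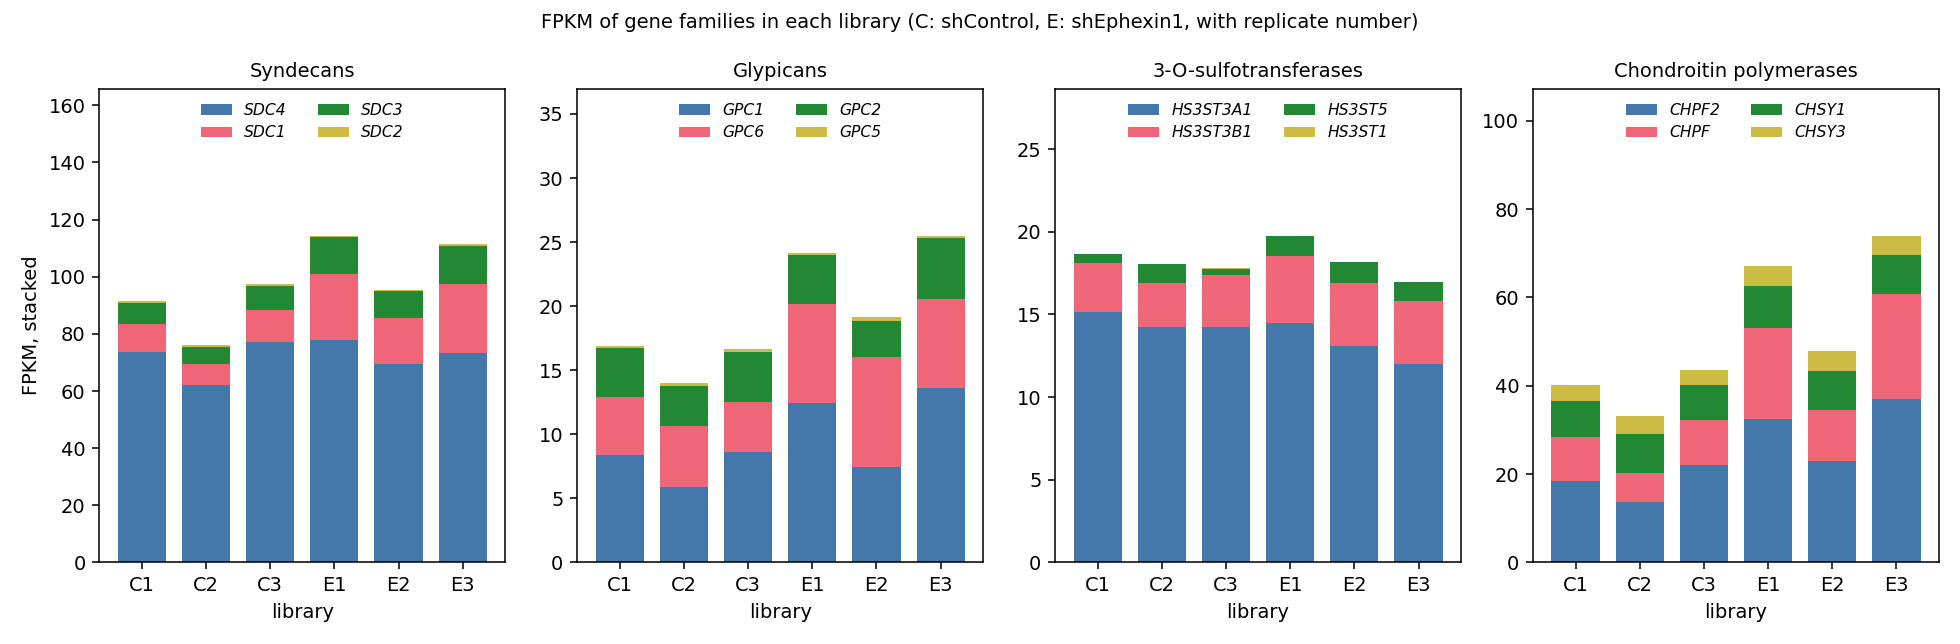
Stacked bars give the FPKM of the 4 most abundant members of each family in each of the 6 libraries (C, shControl; E, shEphexin1; the digit is the replicate). SDC4 is the tallest syndecan segment in every library, the SDC1 segment is larger in all shEphexin1 libraries, and the chondroitin polymerase stack is 33.3 to 43.7 FPKM in shControl against 47.9 to 74.0 FPKM in shEphexin1.

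The 2 basement membrane proteoglycans among the members had similar patterns. HSPG2, which encodes perlecan, was at 5.94, 4.24 and 6.47 FPKM in shControl against 11.0, 7.70 and 12.0 FPKM in shEphexin1. Its groups did not overlap (log2 fold change 0.87, SE 0.225, adjusted p = 0.0637). The value was 0.88 in replicates 1 and 3 (adjusted p = 0.00675) and 0.47 after correction for GC content and length (adjusted p = 0.00189). AGRN, which encodes agrin, was at 14.4, 9.26 and 16.2 FPKM in shControl against 28.3, 15.0 and 30.2 FPKM in shEphexin1. Only shEphexin1 replicate 2 fell within the control range, and the log2 fold change was 0.85 (SE 0.310, adjusted p = 0.154). It was 0.94 in replicates 1 and 3 (adjusted p = 0.00409) and 0.55 after the GC correction (adjusted p = 0.00109).

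CSPG4, a membrane chondroitin sulfate proteoglycan also known as NG2, had low levels of 0.438, 0.410 and 0.649 FPKM in shControl against 1.35, 0.840 and 1.57 FPKM in shEphexin1. The groups did not overlap, and the log2 fold change was 1.15 (SE 0.289, adjusted p = 0.0582). It was 1.29 in replicates 1 and 3 alone (adjusted p = 0.0249, both thresholds passed). After correction for GC content and length it was 0.90 (adjusted p = 0.00853), under the fold threshold. With a pseudocount of 1 FPKM the value was 0.58. TGFBR3, the TGF-beta co-receptor betaglycan, was at 10.7 ± 0.722 FPKM in shControl (SD, n = 3) and 12.5 ± 0.895 FPKM in shEphexin1, with overlap and a 95% interval of -0.066 to 0.49 for the log2 fold change. VCAN, the matrix proteoglycan versican, was at 13.6 to 17.8 FPKM with a log2 fold change of 0.026 (95% interval -0.32 to 0.37). BCAN, CSPG5, DCN, SPOCK2 and SPOCK3 were below 4 FPKM in all libraries and overlapped between groups. ACAN and LUM were at 0 in all libraries, and SRGN, NCAN, BGN and SPOCK1 were under the filter. The summed core protein level was 155 ± 15.3 FPKM in shControl against 199 ± 22.4 FPKM in shEphexin1, without overlap (exact permutation p = 0.1, adjusted 0.329).

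**Figure D3:**
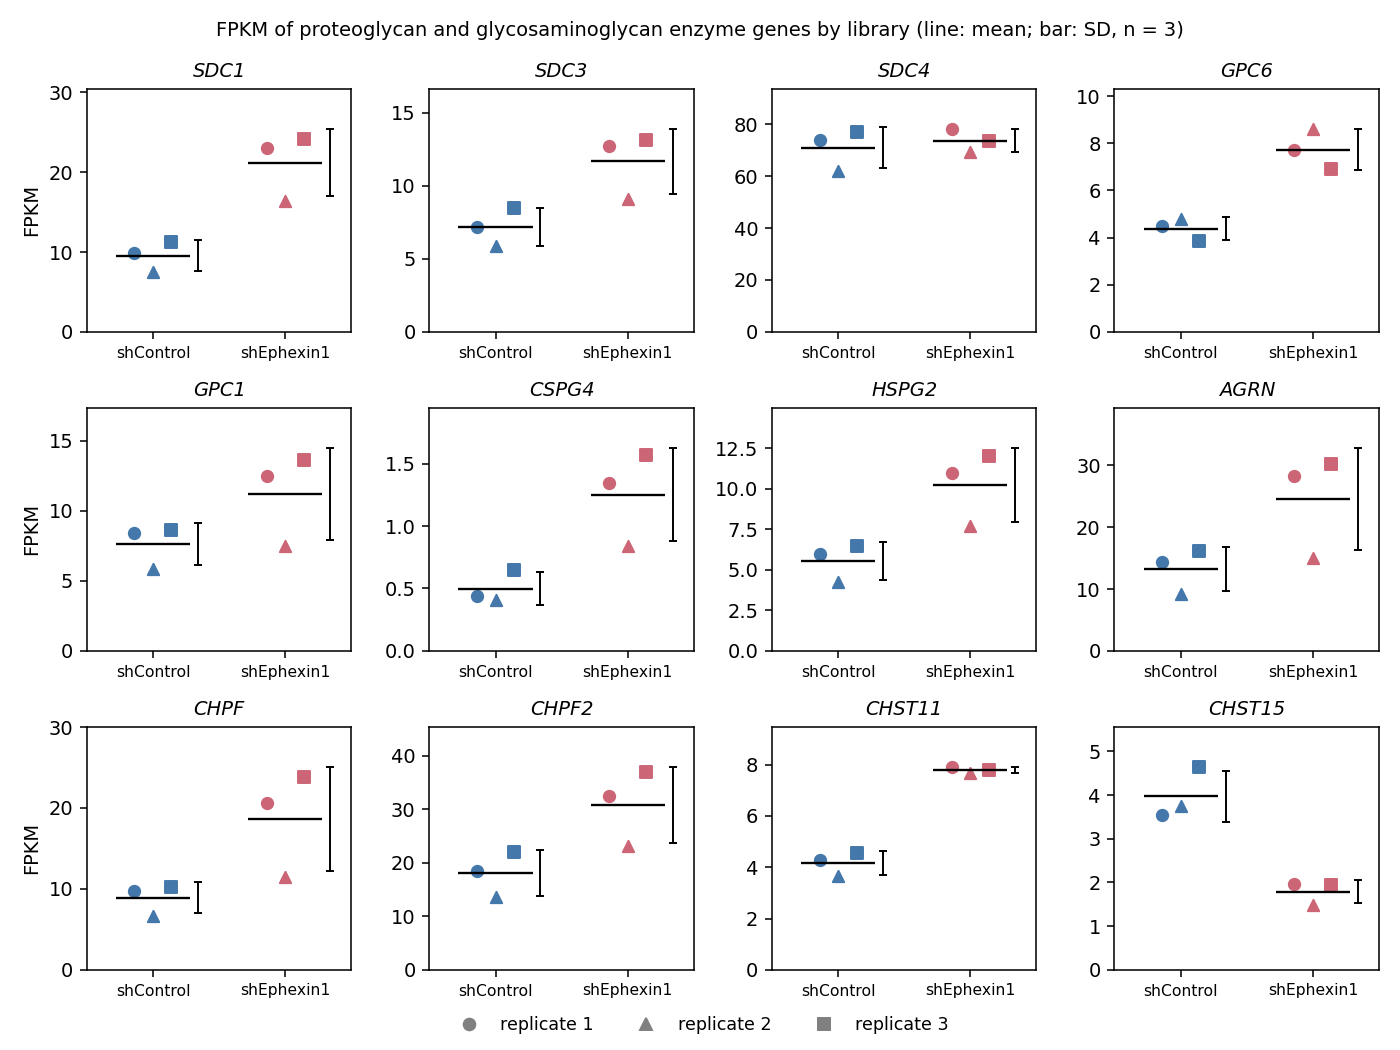
Each panel gives the FPKM of 1 gene (y axis from 0) in the 3 shControl and 3 shEphexin1 libraries, with marker shape for the replicate number, a line for the mean and a bar for the SD. Replicate 2 is the lowest shEphexin1 library in 11 of the 12 panels, GPC6 being the other, and CHST15 is the gene whose shEphexin1 libraries all lie below the controls.

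Of the 26 genes of heparan sulfate enzymes, 16 were tested, none was called by limma, and 4 reached an unadjusted p of at most 0.05 (3 higher and 1 lower), beside 23.3% of all genes. The median log2 fold change of the group was -0.050, and its summed level was 166 ± 7.30 FPKM in shControl against 170 ± 8.08 FPKM in shEphexin1 (exact permutation p = 0.6). Chain initiation requires a xylosyltransferase, and XYLT2 supplied at least 99.4% of xylosyltransferase FPKM in every library. XYLT2 was at 13.6, 10.1 and 14.8 FPKM in shControl against 9.70, 6.05 and 10.3 FPKM in shEphexin1. The groups overlapped by shControl replicate 2, with a log2 fold change of -0.58 (SE 0.238, adjusted p = 0.202) and of -0.50 in replicates 1 and 3 (adjusted p = 0.0222). The 100 nearest expressed genes around XYLT2 had a median log2 fold change of -0.49, and XYLT2 differed from it by -0.090.

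The heparan sulfate polymerase is made of EXT1 and EXT2. EXT1 was at 21.0, 20.3 and 21.1 FPKM in shControl against 25.8, 21.7 and 26.1 FPKM in shEphexin1, a narrow separation with a log2 fold change of 0.23 (SE 0.114, adjusted p = 0.279) and of 0.30 in replicates 1 and 3 (adjusted p = 0.0499). EXT2 overlapped between groups at 19.7 to 23.0 FPKM, with a log2 fold change of 0.080 (95% interval -0.17 to 0.33). EXTL2, a related glycosyltransferase, was at 19.1 to 24.3 FPKM with a value of 0.0093 (95% interval -0.32 to 0.34), and EXTL3 was at 5.53 to 9.58 FPKM with overlap. NDST1, which removes acetyl groups and adds N-sulfate, was the most abundant sulfotransferase of the group at 20.6 to 32.1 FPKM and overlapped (0.19, 95% interval -0.23 to 0.60). NDST2 and NDST3 also overlapped, and NDST4 was at 0. GLCE, the C5 epimerase, was at 8.52 to 11.5 FPKM (0.15, 95% interval -0.19 to 0.48), and HS2ST1, the 2-O-sulfotransferase, was at 10.5 to 15.2 FPKM (-0.14, 95% interval -0.50 to 0.23). HS6ST1 made up at least 98.2% of 6-O-sulfotransferase FPKM in each library and overlapped at 2.42 to 4.27 FPKM.

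The 3-O-sulfotransferases add a rare modification to the chain. HS3ST3A1 was the main one, at 15.1, 14.2 and 14.2 FPKM in shControl against 14.5, 13.1 and 12.0 FPKM in shEphexin1, with overlap. HS3ST3B1 was at 2.99, 2.69 and 3.14 FPKM in shControl against 4.05, 3.76 and 3.80 FPKM in shEphexin1, without overlap (log2 fold change 0.39, SE 0.138, adjusted p = 0.146, and 0.35 in replicates 1 and 3, adjusted p = 0.143). HS3ST5 was at 0.522, 1.13 and 0.347 FPKM in shControl against 1.24, 1.31 and 1.17 FPKM in shEphexin1. Its shEphexin1 levels lay close together while its shControl replicate 2 was near them, so that the log2 fold change was 0.94 over all libraries (SE 0.364, adjusted p = 0.178), 1.31 in replicates 1 and 3 (adjusted p = 0.0269) and 0.20 in replicate 2. As shares of the family sum, HS3ST3A1 was 80.0% ± 1.16 in shControl and 72.0% ± 1.26 in shEphexin1, and HS3ST3B1 was 16.2% ± 1.38 and 21.2% ± 1.04, both without overlap (exact permutation p = 0.1, adjusted 0.329). The sum itself was 18.2 ± 0.424 and 18.3 ± 1.40 FPKM. HS3ST2, HS3ST4 and HS3ST6 were at 0 in all libraries.

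Outside the cell, heparanase cleaves the chains and the SULF enzymes remove 6-O-sulfate. HPSE, which encodes heparanase, was at 3.40, 2.92 and 2.68 FPKM in shControl against 4.89, 4.55 and 4.24 FPKM in shEphexin1. The groups did not overlap and replicate 2 was the middle library of each, with a log2 fold change of 0.59 (SE 0.150, adjusted p = 0.0598). It was 0.58 in replicates 1 and 3 (adjusted p = 0.0666) and 0.62 in replicate 2. SULF2 was at 0.0856 to 0.185 FPKM with overlap, and SULF1 was under the filter.

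**Figure D4:**
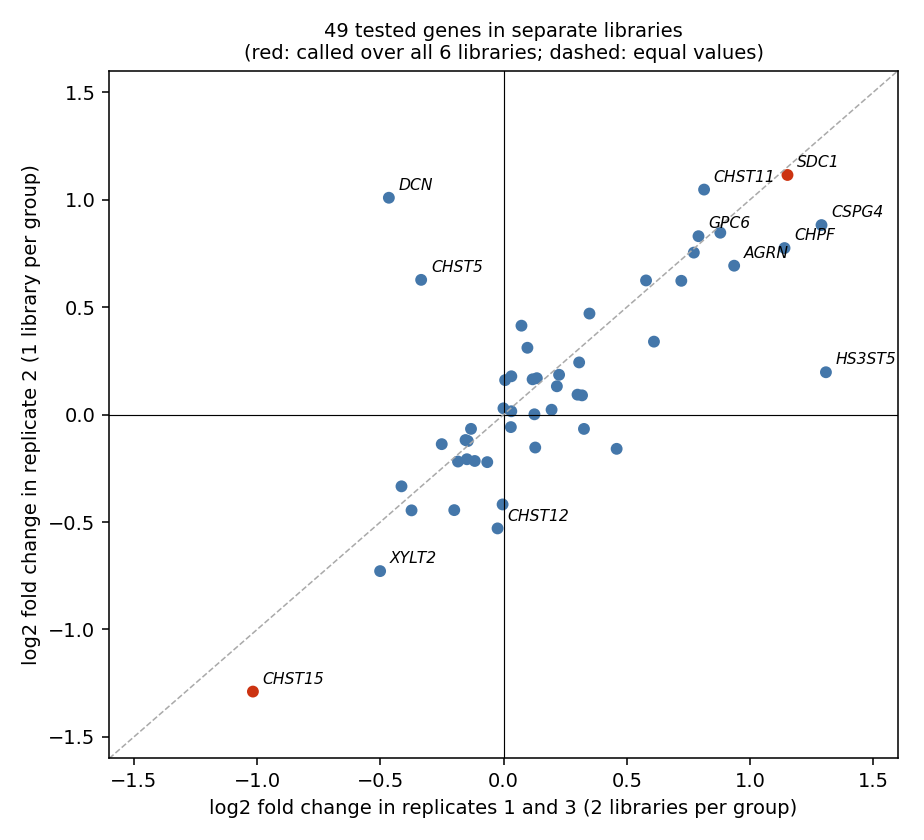
Each of the 49 points is 1 tested gene, with its log2 fold change from replicates 1 and 3 on the x axis and from replicate 2 alone on the y axis. SDC1 and CHST15, in red, lie near the dashed line of equal values, while HS3ST5 lies at 1.31 and 0.20 and DCN, a low gene, at -0.47 and 1.01.

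Chondroitin sulfate is made from the same linker by its own polymerases, and all 4 of their genes were higher in shEphexin1 without overlap, beside 12.8% of all genes. None of the 4 was called by limma, and 2 of them, CHPF and CHPF2, reached an unadjusted p of at most 0.05. CHPF (chr2:220403676-220408531), which encodes chondroitin polymerizing factor, was at 9.79, 6.68 and 10.2 FPKM in shControl against 20.7, 11.5 and 23.8 FPKM in shEphexin1. Replicates 1 and 3 of shEphexin1 were about level and replicate 2 was much lower but above the controls. The log2 fold change was 1.02 (SE 0.292, adjusted p = 0.0847), 1.14 in replicates 1 and 3 (adjusted p = 0.00326, both thresholds passed) and 0.77 in replicate 2. After correction for GC content and length it was 0.89 (adjusted p = 0.000493), under the fold threshold. CHPF2 was at 18.5, 13.6 and 22.1 FPKM in shControl against 32.4, 23.1 and 36.9 FPKM in shEphexin1, with a log2 fold change of 0.77 (SE 0.230, adjusted p = 0.0956), the same in replicates 1 and 3 (adjusted p = 0.0101). The 100 expressed genes nearest to CHPF2 had a median of 0.34, which left 0.43. The synthases differed less, with a log2 fold change of 0.14 for CHSY1 (95% interval -0.13 to 0.40) and 0.24 for CHSY3 (95% interval -0.080 to 0.56). Their separation was narrow. The highest shControl and lowest shEphexin1 levels were 8.70 and 8.84 FPKM for CHSY1 and 4.24 and 4.31 FPKM for CHSY3. The polymerase sum was 39.0 ± 5.28 FPKM in shControl against 63.0 ± 13.5 FPKM in shEphexin1 (exact permutation p = 0.1, adjusted 0.329). CHPF overlaps TMEM198 and CHPF2 overlaps SMARCD3 on the opposite strand, and whether the counting used strand is not given in the sources used here.

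The carbohydrate sulfotransferases hold enzymes for chondroitin, dermatan and keratan sulfate and for other glycans. Of 15 genes, 10 were tested and 2 passed the adjusted p, in opposite directions, beside 3.41% of all genes. CHST15 (chr10:125767184-125853114), which adds a second sulfate to chondroitin 4-sulfate, was at 3.53, 3.76 and 4.64 FPKM in shControl against 1.96, 1.48 and 1.94 FPKM in shEphexin1. All shEphexin1 libraries lay below all controls. CHST15 fell by 1.11 on the log2 scale (SE 0.184, adjusted p = 0.0182), and the difference was -1.02 in replicates 1 and 3 alone (adjusted p = 0.0161) and -1.29 in replicate 2. Leaving out any 1 library ended the call (adjusted p = 0.0267 to 0.0793), and so did subtraction of the median of the 100 nearest expressed genes (-0.33), which left -0.77. A pseudocount of 1 FPKM (-0.83) and the absence of a filter on low values (adjusted p = 0.0280) also ended it.

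CHST11, a chondroitin 4-O-sulfotransferase, was at 4.30, 3.66 and 4.54 FPKM in shControl against 7.90, 7.67 and 7.79 FPKM in shEphexin1. The shEphexin1 levels were almost equal and far above the controls. It had the lowest adjusted p of all members but a fold under 2 (log2 fold change 0.89, SE 0.133, adjusted p = 0.0129), with 0.81 in replicates 1 and 3 and 1.05 in replicate 2. Leaving out 1 library took its adjusted p to between 0.0217 and 0.0825. The log2 ratio of CHST11 to CHST15 was 0.072 ± 0.183 in shControl and 2.13 ± 0.212 in shEphexin1, and the groups did not overlap (exact permutation p = 0.1, adjusted 0.329). CHST11 made up 6.61% ± 0.350 of the summed sulfotransferase FPKM in shControl against 11.7% ± 2.72 in shEphexin1, and CHST15 made up 6.33% ± 0.945 and 2.62% ± 0.200.

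CHST14, the dermatan 4-O-sulfotransferase, was the most abundant of the family at 15.2 to 26.6 FPKM and overlapped between groups (0.20, 95% interval -0.37 to 0.76). CHST3, a chondroitin 6-O-sulfotransferase, overlapped at 9.57 to 14.9 FPKM (0.29, 95% interval -0.075 to 0.65). CHST2, which sulfates N-acetylglucosamine, was at 2.45, 2.21 and 2.63 FPKM in shControl against 2.14, 1.59 and 1.75 FPKM in shEphexin1, lower without overlap but not past the test (-0.40, SE 0.175, adjusted p = 0.227, and -0.37 in replicates 1 and 3, adjusted p = 0.207). CHST4, CHST5, CHST7, CHST10 and CHST12 overlapped. Of the hyaluronan synthases only HAS3 passed the filter, at 0.844 to 1.38 FPKM with overlap (0.25, 95% interval -0.24 to 0.74), and HAS2 was at 0 in all libraries.

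Read across the roles, the genes that passed the adjusted p in replicates 1 and 3 alone were AGRN, CHPF, CHPF2, CHST11, CHST15, CSPG4, GPC1, GPC6, HSPG2, SDC1, SDC3 and XYLT2. These 12 are 24.5% of the tested members, beside 10.6% of all genes, and 10 of them were higher, beside 3.95%. The members are richer in GC than all genes, and no share among genes of like GC content was taken for this fit. All 12 had the same direction in replicate 2, but so did 98.0% of all genes that passed, so this does not set the members apart. After correction for GC content and length over all 6 libraries, 15 members (30.6%) passed the adjusted p, beside 22.9% of the 15204 genes with GC and length, and 13 of them were higher, beside 9.84%. The same 12 genes were among those 15, but both fits used the libraries of replicates 1 and 3, so this is not separate evidence.

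**Figure D5:**
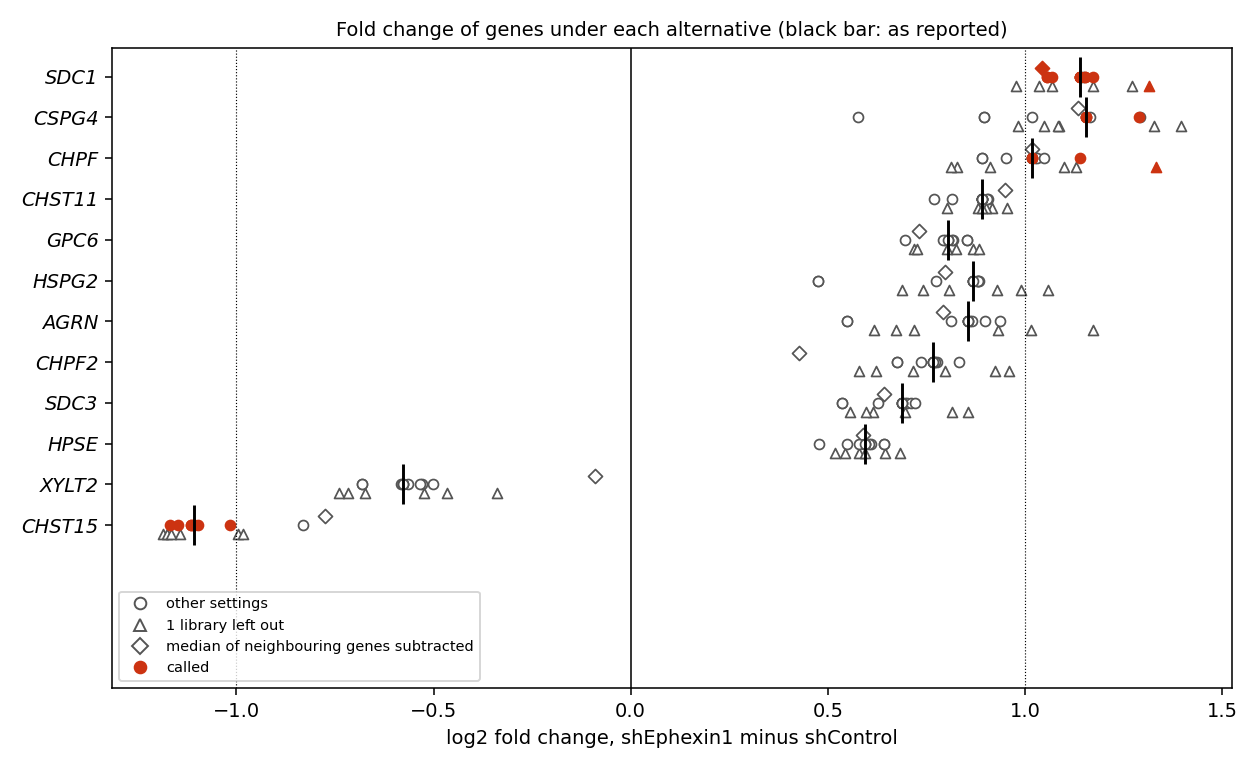
The x axis gives the log2 fold change of 12 genes (rows) as reported (black bar) and under each alternative, with triangles for fits that left out 1 library, diamonds for subtraction of the median of neighbouring genes and filled red markers where both thresholds were passed. The sign of all 12 genes stays the same, and XYLT2 moves closest to 0 at -0.090.

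A second list held 53 other genes of the pathway, among them 2 partners, SDCBP and NOTUM. The rest serve the linker region, chondroitin and dermatan synthesis, sugar and sulfate supply, lysosomal breakdown, hyaluronan turnover and further core proteins. Of the 53, 46 were tested and 2 were called, 1 higher and 1 lower, beside 1.89% of all genes. The groups did not overlap for 17 (37.0%, 11 higher and 6 lower), beside 28.3% of all genes (12.8% higher and 15.4% lower), and the median log2 fold change was 0.13. NRP1, a co-receptor for semaphorins and VEGF that can carry a glycosaminoglycan chain, was at 1.32, 1.86 and 2.14 FPKM in shControl against 6.98, 6.45 and 6.69 FPKM in shEphexin1. It rose by 1.89 on the log2 scale (SE 0.194, adjusted p = 0.00360), and the call was lost only without shEphexin1 replicate 1 (adjusted p = 0.0299). PXYLP1, the phosphatase that removes phosphate from the linker xylose, was at 1.08, 1.78 and 1.15 FPKM in shControl against 0.291, 0.142 and 0.168 FPKM in shEphexin1. It fell by 2.25 on the log2 scale (SE 0.299, adjusted p = 0.00853), with -1.90 in replicates 1 and 3 and -2.96 in replicate 2. With a pseudocount of 1 FPKM the value was -0.95 and the call ended. It overlaps ZBTB38 on the same strand, and its call was kept only when shEphexin1 replicate 2 was the library left out (adjusted p up to 0.0439 for the others).

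In the remaining steps of the pathway, UAP1, which makes the donor of N-acetylglucosamine, was at 66.3 to 69.9 FPKM in shControl against 89.0 to 98.1 FPKM in shEphexin1 (log2 fold change 0.47, SE 0.0918, adjusted p = 0.0306, not called). HYAL3, a hyaluronidase gene that overlaps IFRD2 and NAA80, was at 2.25 to 3.24 FPKM in shControl against 4.33 to 6.73 FPKM in shEphexin1 (log2 fold change 1.03, SE 0.220, adjusted p = 0.0367, not called). It passed both thresholds in replicates 1 and 3 alone (1.09, adjusted p = 0.00617). Of the partners, NOTUM overlapped and SDCBP was lower without overlap. For SDCBP the log2 fold change was -0.44 (limma adjusted p = 0.108), and -0.46 in replicates 1 and 3 (adjusted p = 0.0172). Of the 5 linker region genes, 4 overlapped between groups, and PXYLP1 was the other. The groups did not overlap for 36.4% of the 11 supply genes and 30.0% of the 10 lysosomal genes, beside 28.3% of all genes. The share was 33.3% of the 6 hyaluronan genes and 60.0% of the 5 chondroitin and dermatan genes (2 higher and 1 lower). CSGALNACT1 and CSGALNACT2 overlapped. Of the 7 tested core proteins of this list, 42.9% were higher without overlap, and the other 4, COL18A1 among them, overlapped.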

How the data were processed

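RNA was measured in 3 shControl and 3 shEphexin1 H1299 libraries, prepared from total RNA with a stranded TruSeq kit. Reads were aligned by the authors to GRCh37/hg19 with TopHat2 2.0.13 and Bowtie, and the deposited FPKM values were made by the authors with Cuffdiff of Cufflinks 2.2.1, with geometric library normalization and pooled dispersion (bcl2fastq 2.20 is in the submitters' processing notes). The annotation is not given in the sources used here. All 6 value columns were mapped by library name and 0 were left out. Whole reads could not be recovered from the low FPKM values, so depth is unknown. The vector is given with 2 different resistance genes in the labels and the methods.

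The 16020 genes that reached 0.1 FPKM in 3 or more libraries were compared with limma 3.58.1 in R 4.3.3 on log2(FPKM + 0.1), lmFit and eBayes with trend, with Benjamini-Hochberg adjustment over all of them. Sums, shares and ratios were compared by exact two-sided permutation of libraries, for which the smallest p is 0.1. The script was tested on simulated data. Positions and overlaps came from GENCODE release 44 on GRCh37, promoter windows from RefSeq on GRCh38.p14. The members and lists were chosen with earlier results of these data known. Genes named were NGEF, members called or at an unadjusted p of at most 0.05, the 2 most abundant tested members of each role, members detected in 1 group only (0.1 FPKM), and other pathway genes called or at an adjusted p of at most 0.05. Other genes named with values (SDC2, GPC2, GPC5, TGFBR3, CHST2, BCAN and the like) complete a family and were chosen after their values were seen. Alternatives covered pseudocount, filter, centring, quantile normalization, robust variance, replicate block, batch term, GC correction, neighbouring genes and each library left out.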

Additional observations from a re-analysis of the deposited data

How the results depend on the processing

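Over all genes, 303 were called, and the number was 139 with a pseudocount of 1 FPKM, 530 with the GC and length correction, 526 with that correction and the replicate block, 564 with a term for the replicate 2 libraries and 1123 with the adjusted p limit at 0.05 and no fold threshold. Leaving out 1 library gave 61 to 316. The 2 members called became 1 with a pseudocount of 1 FPKM or 0.01 FPKM or after subtraction of the neighbouring genes' median, 0 with no filter (14 still at an unadjusted p of at most 0.05), and 4 in replicates 1 and 3 alone, with the batch term, or with both an adjusted p limit of 0.05 and no fold threshold. Leaving out 1 library gave 0 to 2 members. The 2 other pathway genes called became 1 with a pseudocount of 1 FPKM and 4 with both an adjusted p limit of 0.05 and no fold threshold, and were 0 to 3 with 1 library left out. The cause of these changes was not tested.

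Among same-numbered libraries the correlation of deviations from the group means was 0.0914, 0.430 and 0.328, and each library correlated best with its own number. The main fit did not use the numbers to pair the samples, so an effect shared by same-numbered libraries stays in its spread. With the replicate block, 556 genes and 4 members were called. In that fit the adjusted p was 0.00064 for AGRN, 0.00065 for HSPG2 and 0.00031 for CHPF2, at unchanged fold changes and each with a fold under 2.

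Of 717 values of 38 named genes under the alternatives, 657 kept their direction and side of the thresholds, 23 were weaker, 13 stronger and 24 reversed, in 8 genes, none of them called. CSPG5 was -0.048 after quantile normalization and -0.0097 with the GC correction, with or without the block. DCN was -0.11 after quantile normalization and -0.47 in replicates 1 and 3. VCAN was -0.019 with the GC correction, with or without the block. After subtraction of neighbours VCAN was -0.067, NDST2 0.16 and SULF2 0.024. With 1 library left out, reversed values were -0.054 and -0.043 for CSPG5 (range up to 0.26), -0.32 and -0.12 for DCN (up to 0.24), 0.0069 and 0.075 for NDST2 (down to -0.25), -0.035 for SDC4 (up to 0.12), -0.10, -0.056 and -0.033 for SPOCK2 (up to 0.72), 0.010 for SPOCK3 (down to -0.66), and -0.075, -0.053 and -0.00081 for VCAN (up to 0.13). With FPKM alone and 3 libraries per group, low genes such as SPOCK2 have 95% intervals as wide as -0.97 to 1.34.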
